A study of Homo sapiens with 4 samples.

Results

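The guanylate-binding proteins GBP1, GBP2, GBP3, GBP4 and GBP5 were followed by RNA sequencing in THP-1 cells, a human acute monocytic leukaemia line. Rows were taken by gene symbol, and each of the 5 symbols matched 1 row of the 27106 genes in the table. Both groups were THP-1 cells given an antisense oligonucleotide (ASO), a short nucleic acid that pairs with an RNA to lower it, and both are labelled day 5. The oligonucleotide was non-targeting in 2 libraries, called the controls here, and aimed at SGOL1-AS1, a long noncoding RNA, in the other 2, called the knockdown. The libraries held 41435922 to 51851314 gene reads, and the deposited values are read counts divided by 1 size factor per library, called normalised reads below. The columns of the knockdown libraries carry a code that no label explains, so they were assigned by elimination, and they are numbered in column order. Knockdown libraries 1 and 2 are the columns marked r3 and r2, while the sample titles name replicates 1 and 2. Which title belongs to which column is not known. No label says that libraries of a group came from separate cultures, so p-values speak only for these samples, whose spread may be technical. In the main test each p-value rests on the gene's spread drawn toward that of genes of like level.

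Guanylate-binding proteins are large GTPases of the dynamin superfamily that cells make in quantity after interferon, above all interferon-gamma. Interferon-gamma acts through the receptor chains IFNGR1 and IFNGR2, the kinases JAK1 and JAK2 and transcription factors that include IRF1, and type I interferon reaches the same genes through STAT2. In macrophages GBP1 coats bacteria that have escaped into the cytosol, other family members join the coat, and the coat serves as a platform for the lipopolysaccharide sensor CASP4. GBP1, GBP2 and GBP5 end in a CAAX box, the signal for attaching a membrane-anchoring prenyl lipid, while GBP3 and GBP4 lack it.

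SGOL1-AS1, listed under its current symbol SGO1-AS1, had 24 and 21 reads in the control and 12 and 17 in the knockdown libraries (limma, log2 fold change -0.48 ± 0.37 SE, adjusted p = 0.555). A loss did not pass the test. With so few reads the 95% confidence interval was wide, from -1.26 to 0.29 on the log2 scale. Falls deeper than -1.26 lie outside this interval, while no change and a partial loss both lie within it. A partial loss could therefore not be told from none, and the labels are not checked by this gene. Of 8 monocytic markers, SPI1, LYZ, CSF1R, CD33 and ITGAM stood at 2869 normalised reads or more in every library, whereas CD14 stood at 94.7 to 110 and CD68 at no more than 21.6. None of the 8 passed the test. Of the lymphocyte markers, NKG7 stood at 1485 and 1297 in the control and 1480 and 1277 in the knockdown libraries and CD79A at no more than 66.2, and CD3E, CD3D and MS4A1 were not analysed here.

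The interferon-stimulated response element (ISRE), a site bound by IRF proteins, was searched on both strands as GAAA, any 2 bases and GAAA again, in RefSeq promoter windows of 300 bases (GRCh38.p14). Windows were found for GBP1, GBP3 and GBP4 and not for GBP2 or GBP5. Each of these 3 windows held a match, against 3.57% of 35116 promoter windows. The windows of the relatives GBP6 and GBP7 were searched too and held none. The 30 bases around each match are shown because each holds the element, 5′ to 3′ on the minus strand, from which these genes are read, with the match in capitals.
GBP1: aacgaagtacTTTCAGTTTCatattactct
GBP3: aaagaagtacTTTCAGTTTCattaggctct
GBP4: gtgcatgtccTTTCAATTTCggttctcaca
They lie at chr1:89065316-89065345 (GBP1), chr1:89022845-89022874 (GBP3) and chr1:89198927-89198956 (GBP4). The capitals are the element read from its other strand. The GBP1 and GBP3 stretches were identical at 25 of 30 positions, and the GBP4 stretch was not compared. A gamma-activated site (GAS), an element of interferon-gamma response, searched as TTCNNNGAA, was matched in the GBP3 window and not in those of GBP1 or GBP4, and in 7.66% of windows overall.
GBP3: actgagtcacTTCCTTGAAagaagtacttt
This stretch, chr1:89022862-89022891, overlaps the one printed for the GBP3 element. The GBP6 and GBP7 windows held no GAS match either. A match is a description of the letters and shows no binding.

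GBP4 and GBP5 fell in the knockdown, while GBP1, GBP2 and GBP3 had lower means that did not pass the test. Thus 2 of 5 members were called lower and 0 higher (limma, adjusted p under 0.05), where 3.40% of the 19398 tested genes were called lower and 0.851% higher. With no mean-variance trend limma called 0 genes in all, although 2337 had an unadjusted p under 0.05. The median log2 fold change was -0.28 over the 5 members and -0.01 over all tested genes. In 3 of 5 members both knockdown values lay below both control values, a pattern found in 25.1% of the genes tested, while 0 of 5 had both above, against 21.6%. In bulk RNA, fewer cells expressing a gene and less RNA per cell cannot be told apart.

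**Figure D1:**
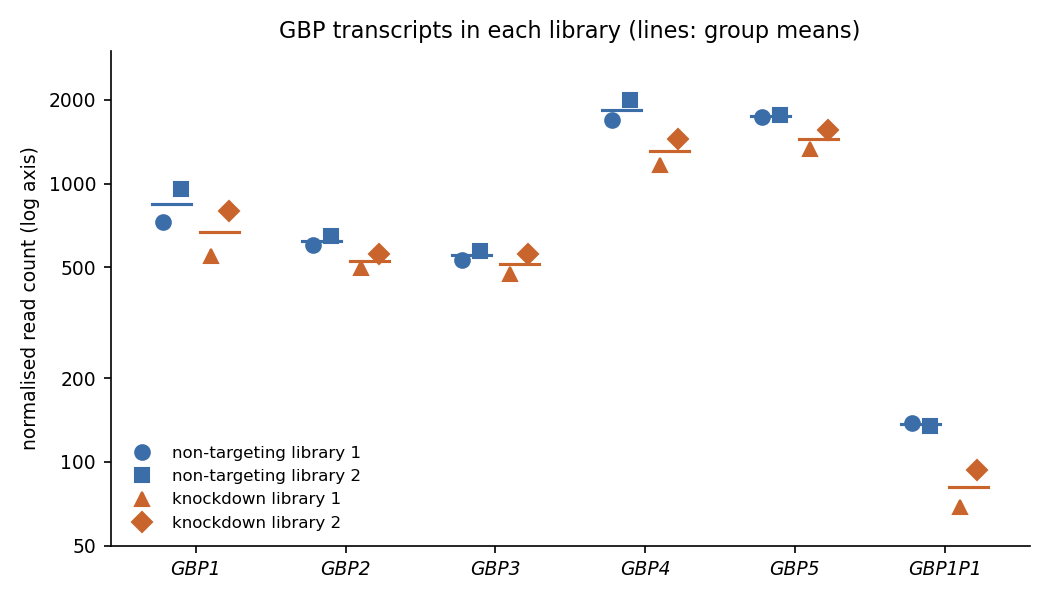
Normalised read count (log axis) of GBP1 to GBP5 and the pseudogene GBP1P1 in each of the 4 libraries, with lines at the group means. The knockdown points of GBP2, GBP4, GBP5 and GBP1P1 lie below both non-targeting points, while those of GBP1 and GBP3 overlap them.

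GBP4 (ENSG00000162654; chromosome 1, 89181148 to 89198932, minus strand, GRCh38), which joins the coat begun by GBP1, had the lowest fold change of the members. It stood at 1695 and 1988 normalised reads in control libraries 1 and 2 and at 1168 and 1451 in knockdown libraries 1 and 2. The groups did not overlap, and knockdown library 1 was the lowest. The mean fell from 1841 ± 207 to 1309 ± 199.9 (SD, n = 2), a log2 fold change of -0.50 ± 0.09 (SE; 95% confidence interval -0.68 to -0.32; limma, adjusted p = 0.00116). Of the tested genes, 3.12% had a lower fold change. The call held with each library left out in turn, at -0.34 without knockdown library 1 and at -0.38 to -0.65 without another, and ended with robust empirical Bayes (adjusted p = 0.0616).

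GBP5 (ENSG00000154451; 89258950 to 89272804, minus strand), a prenylated member that lowers the activity of the protease FURIN and with it the infectivity of enveloped viruses, was at 1732 and 1769 normalised reads in the control libraries. It was at 1334 and 1562 in the knockdown libraries, again with the groups apart and knockdown library 1 the lower. The spread of GBP5 within groups, 0.11 on the log2 scale, exceeded that of 91.0% of 1487 tested genes of like mean. The mean fell from 1751 ± 25.7 to 1448 ± 162 (SD, n = 2; log2 fold change -0.28 ± 0.07 SE; 95% confidence interval -0.43 to -0.13; limma, adjusted p = 0.0280). With 1 library left out, the call held only without knockdown library 2 (-0.39, adjusted p = 3.34e-05). Leaving out control library 1 (adjusted p = 0.0816), control library 2 (0.120) or knockdown library 1 (-0.16, adjusted p = 0.237) ended it, and so did scaling all libraries to 1 total (0.114). edgeR called GBP4 and GBP5 (adjusted p = 0.00352 and 0.0433), where 2.87% of genes were called lower and 0.820% higher. DESeq2 called GBP4 (adjusted p = 0.000903) but not GBP5 (0.0895), where 1.96% of genes were called lower and 0.345% higher.

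GBP1 (ENSG00000117228; 89052319 to 89065360, minus strand), the farnesylated member that first binds bacterial lipopolysaccharide, varied most between libraries of 1 group. It stood at 729.8 and 959.6 normalised reads in the control and at 548 and 793.8 in the knockdown libraries. Knockdown library 2 was above control library 1, so the groups overlapped. The log2 fold change was -0.34 ± 0.13 (SE; 95% confidence interval -0.61 to -0.08; limma, adjusted p = 0.143). The spread within groups on the log2 scale, 0.33, was wider than that of 99.7% of the 1136 tested genes with a mean of 0.8 to 1.25 times that of GBP1. Which library was present decided its value: GBP1 was at -0.61 without knockdown library 2 (adjusted p = 5.25e-08) and -0.54 without control library 1 (0.000366), but at -0.08 without knockdown library 1 (0.766) and -0.15 without control library 2 (0.682).

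GBP2 (ENSG00000162645; 89106132 to 89150456, minus strand), a geranylgeranylated member that, like GBP5, lowers FURIN activity, was at 601 and 646 normalised reads in the control and at 497 and 558 in the knockdown libraries. The groups did not overlap, but the log2 fold change of -0.24 ± 0.09 (SE; 95% confidence interval -0.43 to -0.06) did not pass over all genes (limma, adjusted p = 0.146). Without knockdown library 2 GBP2 was called lower (-0.33, adjusted p = 0.0363).

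GBP3 (ENSG00000117226; 89006666 to 89022894, minus strand), the closest relative of GBP1, had the fold change nearest 0. It was at 531 and 573 normalised reads in the control and at 472 and 560.0 in the knockdown libraries, where knockdown library 2 lay between the control values. The log2 fold change was -0.10 ± 0.10 (SE; 95% confidence interval -0.30 to 0.10; limma, adjusted p = 0.653), and 0.02 without knockdown library 1.

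The members shared their lowest and highest library but not the full order. For each of the 5, knockdown library 1 was the lowest and control library 2 the highest of the 4. Knockdown library 2 lay above control library 1 for GBP1 and GBP3 and below it for GBP2, GBP4 and GBP5. The share of all tested genes with the same lowest and highest library was not counted. Against the control mean, the median deviation of the 5 members was -0.39 on the log2 scale in knockdown library 1 and -0.16 in knockdown library 2. It was -0.05 and 0.05 in control libraries 1 and 2. The summed level of the members was 108 and 122 CPM (reads scaled to each library's total) in the control and 86.3 and 104 in the knockdown libraries. Control library 2 was the deepest, at 51851314 reads, and knockdown library 2 the shallowest, at 41435922, with 48558537 in knockdown library 1. The part of depth in this pattern was not tested. What made knockdown library 1 the lower of its group was not tested.

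**Figure D2:**
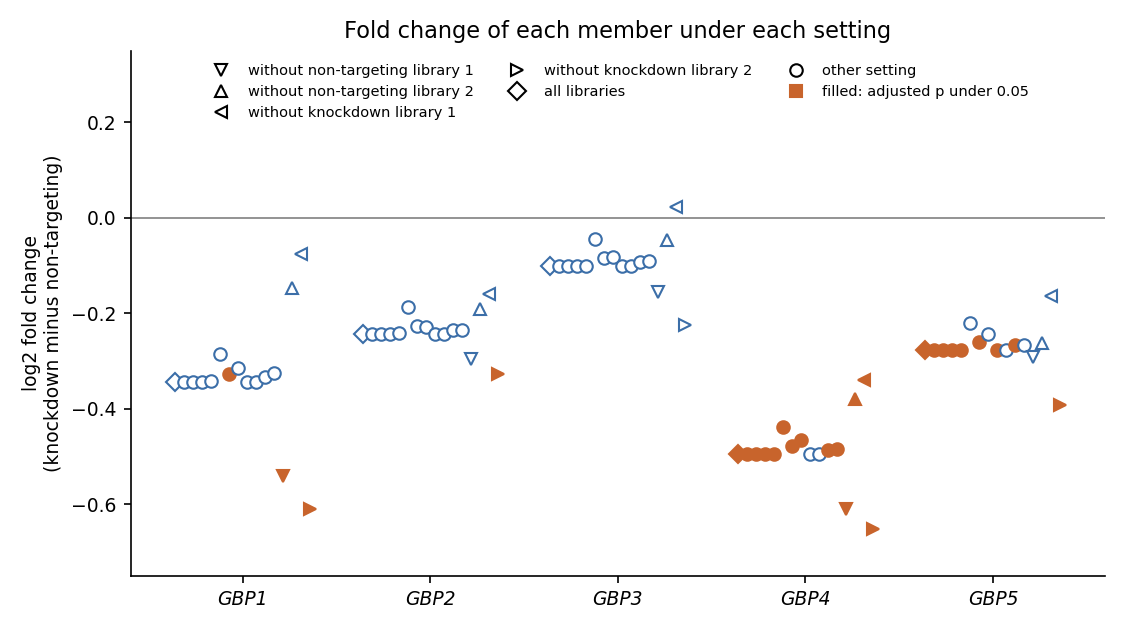
Log2 fold change (knockdown minus non-targeting) of GBP1 to GBP5 with all libraries (diamonds) and under 15 other settings, filled where the adjusted p is under 0.05. Triangles leave out 1 library: without knockdown library 1 each member sits closer to 0 than with all libraries, and GBP3 just above 0.

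Fold changes of the members were compared pair by pair as log2 ratios within each library, which a size factor moves only through the pseudocount. The GBP3 to GBP4 ratio was -1.67 and -1.79 in the control and -1.31 and -1.37 in the knockdown libraries, a difference of 0.39 with the groups apart. The GBP4 to GBP5 ratio was -0.03 and 0.17 in the control and -0.19 and -0.11 in the knockdown libraries, lower by 0.22 on average. The groups were apart in 5 of the 10 pairs, which reuse the same genes, and the share over pairs of other genes was not computed. With 2 libraries against 2, a two-sided exact permutation test cannot go below p = 0.333 (adjusted over the 10 pairs, 0.667), so it cannot show whether the members' fold changes differ.

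Levels between members were compared per kilobase of annotated exon (GENCODE 29). In the control libraries GBP4 had 301 ± 33.8 normalised reads per kilobase (SD, n = 2), GBP5 215 ± 3.15, GBP1 169 ± 32.5, GBP3 128 ± 6.89 and GBP2 99.4 ± 5.09. No neighbours in this order overlapped. In the knockdown libraries the order was the same, at 214 ± 32.6, 178 ± 19.8, 134 ± 34.9, 120.1 ± 14.5 and 84.0 ± 6.87, but GBP4 overlapped GBP5 and GBP1 overlapped GBP3. The order rests on the length used: per kilobase of the longest transcript, GBP5 came first and GBP3 last in both groups. GBP4 made up 32.4% and 33.4% of the members' summed level per kilobase of exon in the control and 29.2% and 29.3% in the knockdown libraries. The share of GBP3 was 14.5% and 13.7% against 16.8% and 16.2%.

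The 5 genes lie in 1 cluster on chromosome 1, with GBP7, GBP6 and the GBP1 pseudogene GBP1P1. From GBP3 to GBP1P1 the cluster spans 419.6 kb. GBP1P1 (ENSG00000225492; 89407679 to 89426243, plus strand), a transcribed copy with no known protein, was at 138 and 135 normalised reads in the control and at 69.0 and 93.5 in the knockdown libraries. It fell by 0.76 on the log2 scale (limma, adjusted p = 0.0150). The difference between this value and those of the members was not tested. That call ended without control library 1 (0.0814), without knockdown library 1 (-0.54, adjusted p = 0.0832), with 1 total for all libraries (0.050001) and with DESeq2 (0.115). GBP7 had 5 and 3 reads in the control and 2 and 3 in the knockdown libraries, too few to test, and GBP6 was not analysed here. The nearest tested gene on the GBP3 side, RBMXL1, was at -0.08 (limma, adjusted p = 0.633), and LRRC8B on the GBP1P1 side was at 0.09 (0.543). PTGES3P1, a processed pseudogene between GBP1 and GBP2, was at -0.02 (0.966).

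**Figure D3:**
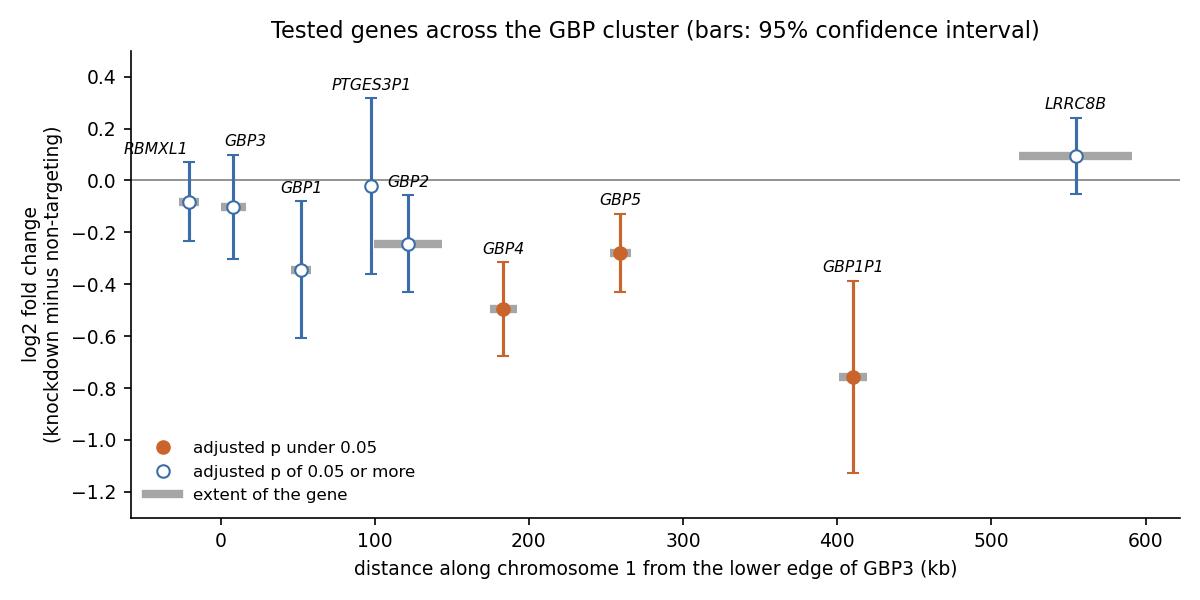
Log2 fold change (knockdown minus non-targeting) of every tested gene from RBMXL1 to LRRC8B against distance in kb from the lower edge of GBP3, with 95% confidence intervals; grey bars show each gene's extent and filled points an adjusted p under 0.05. GBP4, GBP5 and GBP1P1 are filled, and the flanking genes RBMXL1 and LRRC8B lie near 0.

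Family members share sequence, and reads from shared stretches could be counted for either gene or for none. Of the distinct 50-base stretches in its GENCODE 29 transcripts, GBP1 shared 9.62% with another gene, GBP2 10.2%, GBP3 4.76%, GBP4 5.92% and GBP5 3.12%. Not all of this was with the family. Of the 364 shared by GBP4, 5 were also in GBP2 and 19 in GBP7. GBP5 shared none with another GBP, and 227 of its 260 were with an overlapping antisense transcript. Of 100-base stretches the shares were 1.09%, 8.42%, 0.0%, 0.764% and 1.5%. GBP2 shared its 100-base stretches with GBP7, whose annotated span overlaps that of GBP2 from 89131751 to 89150456. GBP1P1 shared 16.6% of its 50-base stretches with GBP1, GBP2 or GBP3 and 2.34% of its 100-base stretches with GBP1. The sources used here do not give the read length, the counting rule or the strand setting. Antisense transcripts overlap GBP4 and GBP5, and their reads cannot be told apart from those of the 2 genes without strand.

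Upstream of the family, STAT2, USP18 and IRF2 fell, while the receptor chains IFNGR1 and IFNGR2 and the kinases JAK1 and JAK2 did not pass the test. Of 16 genes listed for interferon receptors and signalling 15 were tested, of which 4 fell and 0 rose (median log2 fold change -0.16). The shares over all tested genes were 3.40% lower and 0.851% higher. STAT2, a transcription factor of the type I response, was at 8558 and 8972 normalised reads in the control and at 6427 and 7641 in the knockdown libraries, with the groups apart. It fell by 0.32 on the log2 scale (limma, adjusted p = 0.00325), and USP18, which damps the type I receptor, fell by 0.53 (6.49e-05). IRF2, an IRF1 relative chosen for mention with its value known, fell by 0.24 (0.0354) and lost its call without control library 1 (0.126), control library 2 (0.253) or knockdown library 1 (0.142), with DESeq2 (0.115), with 1 total for all libraries (0.129) and after quantile normalization (0.121). IRF1, an activator of GBP promoters, was at 3440 and 3608 against 2922 and 3200, with the groups apart, and missed the threshold (-0.20; limma, adjusted p = 0.0530). It was called lower with robust empirical Bayes (0.0262) and without knockdown library 2 (-0.27, 0.00204). The myeloid factor IRF8 was at -0.13 (0.134).

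IFNGR1 was at 2951 and 3053 normalised reads in the control and at 3005 and 3257 in the knockdown libraries (limma, log2 fold change 0.06, adjusted p = 0.667). IFNGR2 was at 401 and 283 against 309 and 195 (-0.46, adjusted p = 0.136). Its libraries were ordered differently from those of the GBPs, with library 2 the lower in each group, and so were those of the feedback inhibitor SOCS1, at 247 and 179 against 218 and 135 (-0.29, 0.429). IFNGR2 was called lower without knockdown library 1 (-0.79, 2.22e-06) or control library 2 (-0.71, 0.000727) and with the same median in every library (-0.44, 0.0278), and SOCS1 without knockdown library 1 (-0.64, 0.00423). JAK1 was at -0.02 (0.920) and JAK2 at -0.16 (0.118), and JAK2 was called lower without knockdown library 2 (-0.21, 0.0224).

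Among other genes that interferon-gamma induces, SECTM1, APOL3 and CD74 fell. Of 22 listed, 16 were tested, of which 8 fell and 0 rose, and 15 had both knockdown values below both control values (median -0.39). Over all tested genes these shares were 3.40%, 0.851% and 25.1%. SECTM1, a secreted myeloid and epithelial protein, fell from 471 ± 43.8 to 225 ± 6.13 normalised reads (SD, n = 2), a log2 fold change of -1.06 ± 0.11 (SE; limma, adjusted p = 2.25e-06). APOL3, an interferon-induced apolipoprotein that permeabilises bacteria already coated by GBPs, was at 296 and 335 in the control and at 152 and 197 in the knockdown libraries (-0.86, adjusted p = 0.000385). CD74, the class II invariant chain, fell by 0.43 (3.06e-05). Of 4 other GTPase genes listed, 2 fell: the interferon-inducible antiviral proteins MX1 by 0.33 (0.00159) and MX2 by 0.51 (8.53e-05). The other 2 did not pass and had positive fold changes, IRGM at 0.38 (0.335) and the pseudogene GVINP1 at 0.06 (0.817). IRGM was at 59.5 and 81.8 normalised reads in the control and at 97.8 and 85.5 in the knockdown libraries. The call of MX2 ended with robust empirical Bayes (0.0924). The atlastins are GTPases of the dynamin superfamily that shape the endoplasmic reticulum, and 0 of the 3 passed. ATL2 was at 0.03 (0.865), ATL3 at -0.05 (0.710) and ATL1 at 0.31 (0.128). ATL1 stood at 250 and 260 normalised reads in the control and at 309 and 324 in the knockdown libraries.

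**Figure D4:**
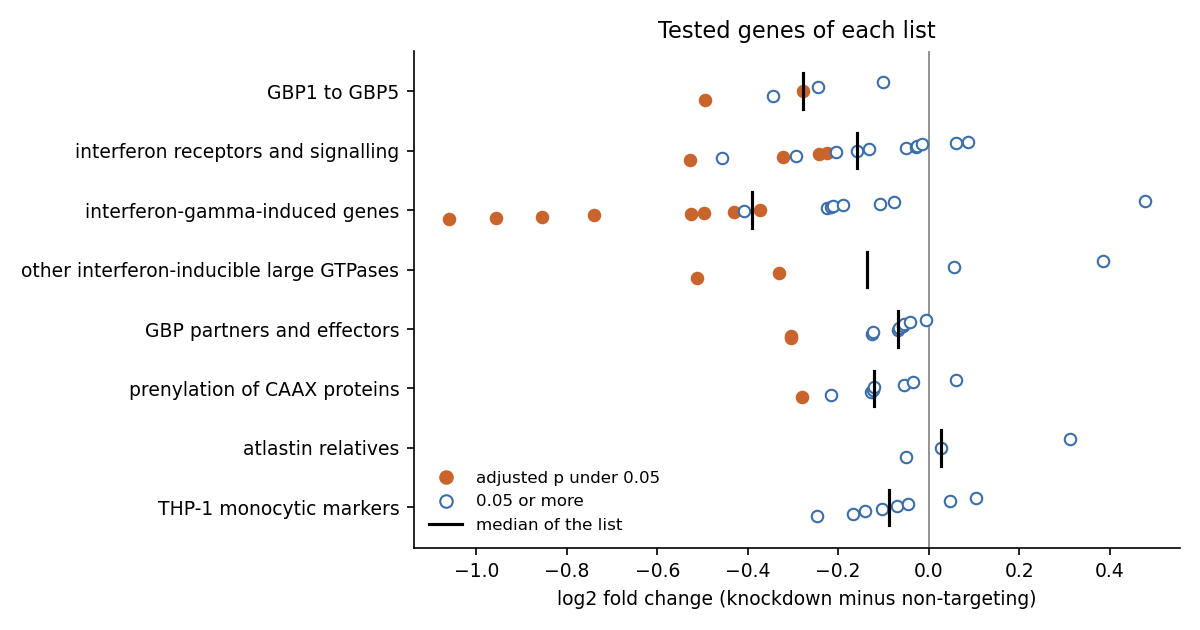
Log2 fold change (knockdown minus non-targeting) of every tested gene of 8 lists, filled where the adjusted p is under 0.05, with a line at each list's median. GBP1 to GBP5 have a median of -0.28, the interferon-gamma-induced genes -0.39, and the monocytic markers, with 0 of 8 called, -0.09.

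Genes that act with the GBPs mostly did not pass. Of 12 listed partners 10 were tested, of which 2 fell and 0 rose (median -0.07). Over all tested genes, 3.40% were called lower and 0.851% higher. All 10 had negative fold changes, as had 10179 of the 19398 tested genes. RNF213, a giant ubiquitin ligase that also coats cytosolic bacteria, was at 65937 and 68925 normalised reads in the control and at 50903 and 58559 in the knockdown libraries (limma, log2 fold change -0.30, adjusted p = 0.00253). PYCARD, the adaptor that links inflammasome sensors to CASP1, fell by 0.31 (0.00200). CASP4, recruited to the GBP coat, was at -0.07 (0.675), CASP1 at -0.13 (0.338) and the DNA sensor AIM2 at -0.12 (0.608). PIM1, a kinase that keeps GBP1 inactive in the cytosol, was at -0.04 (0.849), and FURIN, whose activity GBP2 and GBP5 lower, at -0.07 (0.616). CASP1 was called lower without knockdown library 2 (-0.24, 0.0108). GSDMD was not analysed here.

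Where 3.40% of all tested genes were called lower, 1 of the 8 genes for prenylation of CAAX proteins fell and 0 rose (median -0.12). It was FDPS, which makes farnesyl diphosphate, the lipid carried by GBP1 and the precursor of that carried by GBP2 and GBP5 (limma, log2 fold change -0.28, adjusted p = 0.00278). This call ended without control library 2 (0.0754). The transferase subunits that attach these lipids were at -0.03 (FNTA, 0.826), -0.22 (FNTB, 0.392) and 0.06 (PGGT1B, 0.656).

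The genes whose pattern over the 4 libraries was most like the mean of the members were HOTTIP, BLZF1, ELOVL2, SAMD9 and TRIM22, out of 13933 genes with a symbol and a mean of at least 50. Likeness was the root mean square distance between log2 deviations from the control mean, and it ran from 0.014 for HOTTIP to 0.022 for TRIM22, where the median over the 13933 genes was 0.24. TRIM22, an interferon-induced ubiquitin ligase, was at 8882 and 9808 normalised reads in the control and at 6867 and 8223 in the knockdown libraries. SAMD9, an antiviral protein, was at 11710 and 12930 against 9150 and 11417. HOTTIP, a long noncoding RNA at the HOXA locus, was at 245 and 271 against 191 and 230, with the same lowest and highest library. With 4 libraries such likeness is a description, and 357 genes lay within 0.1.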

How the data were processed

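The deposited table holds 1 signal value per gene and library, read counts that the authors divided by a size factor, as read from the values: each is within 0.000474 reads of a whole read. STAR 2.5.1b, DESeq2 and GRCh38 are named without a role, per the submitters' processing notes. The table holds no gene with under 2 reads in knockdown library 1, while 2092 to 2375 genes have fewer in the others, so genes lost from that library are not analysed here. Replicate libraries differed by a chi-square of 4.92 and 5.47 per degree of freedom, so none was a copy. The test was limma 3.58.1 (R 4.3.3; empirical Bayes, trend) on log2(value + 1). It ran over the 19398 genes whose mean reached 10. P-values were adjusted by Benjamini-Hochberg and called under 0.05. Fold changes on this scale understate low genes. Alternatives were other filters, pseudocounts, scalings, variance settings and thresholds, each library left out, and edgeR 4.0.16 and DESeq2 1.42.0 on recovered reads. The tests were also run on simulated reads in which every gene had the same spread beyond counting noise. That does not show how they do on genes as variable between libraries as GBP1 or GBP4. Symbols matched 26579 genes and GENCODE 29 matched 26077. Members and lists were chosen with earlier results of these data known. Genes named were the 5 members, their cluster and nearest flanking genes, preset genes of each list with up to 3 called members of smallest p, and the 5 most alike in pattern. Values of some listed genes are not reported here.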

Additional observations from a re-analysis of the deposited data

How the results depend on the processing

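Each library was left out in turn, which leaves 1 sample that has to borrow its spread from the other group. Log2 fold changes then ran from -0.61 to -0.076 for GBP1, -0.33 to -0.16 for GBP2, -0.22 to 0.022 for GBP3, -0.65 to -0.34 for GBP4 and -0.39 to -0.16 for GBP5. The number of members called lower ran from 1 to 4, and over all tested genes 334 to 960 were lower and 87 to 309 higher, against 660 and 165 with all libraries. Without control library 1 the count stayed at 2, but the genes were GBP1 and GBP4. Over the other settings GBP1 to GBP5 kept negative fold changes. GBP1 was called with the same median in every library (-0.33, adjusted p = 0.0321). GBP4 lost its call with robust empirical Bayes (-0.50, 0.0616) and with no trend (-0.50, 0.394). That of GBP5 ended with the same total (-0.22, 0.114), quantile normalization (-0.24, 0.113), no trend (-0.28, 0.438), DESeq2 (-0.27, 0.0895) and a threshold of 0.01 (-0.28, 0.0280). Thus 1 member was called with the same total, quantile normalization, robust empirical Bayes, DESeq2 or a threshold of 0.01, and 0 with no trend, where limma called 0 genes in all and 2337 had an unadjusted p under 0.05. The cause was not tested. Lower genes numbered 293 with the same total, 334 after quantile normalization, 380 with DESeq2 and 337 at a threshold of 0.01. Higher genes numbered 290 with the same median, 67 with DESeq2, 46 at a threshold of 0.01 and 344 at 0.1. The lower share of calls, 80.0%, was 55.5% with the same total, 69.1% with the same median and 70.2% after quantile normalization. Uncalled genes near 0 changed sign: JAK1 with the same total (0.042), the same median (0.0013), quantile normalization (0.030) and a library left out (-0.036 to 0.0044), PIM1 with the same total (0.015) and a library left out (-0.10 to 0.019), FNTA with the same total (0.022), quantile normalization (0.0028) and a library left out (-0.076 to 0.0069), ATL3 with the same total (0.0079), quantile normalization (0.0026) and a library left out (-0.12 to 0.023). With a library left out, SOCS1 ran from -0.64 to 0.051, CASP4 from -0.16 to 0.023, AIM2 from -0.29 to 0.042, FURIN from -0.14 to 0.0026, ATL2 from -0.012 to 0.067 and RBMXL1 from -0.21 to 0.046. No paired analysis was possible because the columns of the 2 groups share 1 replicate number.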
